A study of Mus musculus with 6 samples.

Results

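The 10 genes described here encode transcription factors known for their work in the lens and the eye, and they were followed by ATAC-seq, which cuts DNA with the Tn5 transposase where chromatin is open, in 3 mouse lines that differ in their use of Pax6, a regulator shared by eye and endocrine pancreas. The genes, of 22368 annotated protein-coding genes, were Prox1, Maf, Hsf4, Pitx3, Foxe3, Meis1, Meis2, Six3, Sox1 and Sox2. They were chosen by name, and every called peak that overlapped a gene body or the 10 kb on either side was taken. A peak within 1 kb of an annotated transcript start was a start-site peak, and the rest were other peaks. The Pax6-HIGH line was Beta-TC3, a mouse insulinoma line. The Pax6-ON line was MV+, derived from cultured lens epithelium of a wild-type C57BL6 mouse. The Pax6-OFF line was RAG, a renal adenocarcinoma line from a BALB/c mouse. All were untreated and grown in the same medium. Each line is a single cell line with 2 replicate suspensions, so line, tissue of origin, mouse strain and Pax6 state cannot be told apart. Nuclei were released with 0.2% NP40 in MV+ and 0.1% in the other lines, which cannot be told apart from the line either.

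In the lens, Pax6 acts with a small circle of partners. Six3, Sox2, Meis1 and Meis2 act in the early eye field and lens placode, Foxe3 and Pitx3 keep the anterior epithelium, and Maf, Prox1, Sox1 and Hsf4 act in fibre cells, where crystallin genes are switched on. Several are not confined to the eye, since Prox1 and the Meis genes are also used in the pancreas, and Maf in kidney and pancreatic alpha cells.

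Sequences are shown for 7 sites on which the comparison of lines turns, read from NCBIM37 (mm9), each of 121 bases, 5′ to 3′ on the strand of the named gene. Capitals mark matches to short motifs on either strand, namely MEIS (TGACAG) and a partial Maf motif (TGCTGAC). The latter is only part of the full Maf recognition motif. They also mark the CCAAT box, which is searched by the letters of its name, and the GC box (GGGCGG), both added after these sequences were seen. The Prox1 site is the stretch just before the 5′ end, inside the peak of Beta-TC3 and MV+ (chr1:191994560-191994680, minus strand). The first Maf site is centred on the MV+ summit, inside peaks of all 3 lines (chr8:118231786-118231906, minus strand). The second is the intronic Maf site called in Beta-TC3 alone (chr8:118221656-118221776, minus strand). The Hsf4 site is the stretch just before its 5′ end, called in Beta-TC3 alone (chr8:107793580-107793700, plus strand). The Meis1 site is its strongest intronic site (chr11:18826955-18827075, minus strand), the Meis2 site is centred on the MV+ summit upstream of the gene (chr2:115892887-115893007, minus strand), and the Six3 site is called in MV+ alone (chr17:86017355-86017475, plus strand).
Prox1 start site: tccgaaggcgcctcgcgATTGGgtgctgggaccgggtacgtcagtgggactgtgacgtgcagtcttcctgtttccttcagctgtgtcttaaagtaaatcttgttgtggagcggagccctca
Maf start site: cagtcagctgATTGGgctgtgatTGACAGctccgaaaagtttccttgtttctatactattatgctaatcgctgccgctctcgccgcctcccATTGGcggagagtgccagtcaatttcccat
Maf intron: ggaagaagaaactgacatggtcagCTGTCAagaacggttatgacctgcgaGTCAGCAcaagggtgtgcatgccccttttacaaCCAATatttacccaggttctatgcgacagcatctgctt
Hsf4 start site: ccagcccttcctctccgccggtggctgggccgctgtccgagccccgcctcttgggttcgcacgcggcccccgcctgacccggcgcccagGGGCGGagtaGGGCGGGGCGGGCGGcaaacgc
Meis1 intron: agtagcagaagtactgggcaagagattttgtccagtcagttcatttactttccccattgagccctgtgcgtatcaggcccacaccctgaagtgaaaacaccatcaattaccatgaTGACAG
Meis2 upstream: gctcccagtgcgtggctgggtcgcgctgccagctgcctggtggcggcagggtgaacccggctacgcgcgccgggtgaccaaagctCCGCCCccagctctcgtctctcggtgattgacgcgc
Six3 MV+ site: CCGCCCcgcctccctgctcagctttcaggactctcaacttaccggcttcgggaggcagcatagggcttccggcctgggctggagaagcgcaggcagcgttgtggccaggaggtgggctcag
These windows ranged from 46.3% G and C with 1 CpG at the Meis1 intron to 79.3% with 16 CpG at Hsf4. The Maf intron held the partial Maf motif, and it was the only one of the 24 peaks at the 10 genes with that match. The same letters were in 9.35% of all Beta-TC3 peaks.

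The calls rested on 100254099 fragments in Beta-TC3, 130955836 in MV+ and 102223606 in RAG, both replicates together. They gave 28024, 9821 and 14022 peaks, so MV+ had the most fragments and the fewest peaks. The pileup, the number of fragments over a summit, was at least 25, 30 and 25 for any called peak, with medians of 54.0, 61.0 and 50.0. A site with fewer fragments, or too few over a high local background, was not listed, so a gene without a call is not shown to be closed. Because pileups were not scaled for depth, each was given as its percentile among the peaks of the same line, with the 95% interval that Poisson counting error in the pileup allows. A percentile also depends on how many weak peaks a list holds, so percentiles of different lines are set side by side and not compared. Where a site in the windows of these genes was called in several lines, a second percentile is given beside it. That is the percentile among the peaks found in all 3 lines, an alternative chosen after seeing the data. Peaks outside those windows carry the first percentile alone. No value has a replicate error, no test between lines was possible, and a weak peak in all cells cannot be told apart from a strong one in a few. Intervals cover counting error only, since sequenced fragments are not independent molecules.

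Start-site peaks were most frequent in the insulinoma line. They were called at 5 of the 10 genes in Beta-TC3 (Prox1, Maf, Hsf4, Meis1 and Meis2), 2 in MV+ (Prox1 and Maf) and 2 in RAG (Maf and Pitx3). As shares these were 50%, 20% and 20%. Over all protein-coding genes the shares were 46.4%, 21.4% and 36.1%, so the genes' shares lay near the background in Beta-TC3 and MV+. These counts moved with the length of the peak list. With each line reduced to the 9821 peaks of the smallest q-values, Beta-TC3 kept 1 of the 10 genes (Hsf4), MV+ 2 and RAG 1 (Maf), against 28% of all genes in Beta-TC3 and 30.7% in RAG. With the 9821 peaks of the highest pileup, Beta-TC3 kept 3 (Maf, Hsf4 and Meis2) and RAG 1 (Maf), against 27.4% and 29.5%.

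The windows of 10 kb around the genes held 15 peaks in Beta-TC3, 5 in MV+ and 4 in RAG. Of these, 6, 2 and 2 were start-site peaks. The window peaks made up 0.0535%, 0.0509% and 0.0285% of all peaks of each line. At least 1 peak fell in the window of 6, 5 and 3 of the genes (60%, 50% and 30%), against 61.6%, 30.6% and 48.9% of all genes. MV+ was the line in which this share exceeded the background, with peaks at Pitx3, Meis2 and Six3, none of which had a start-site peak there. Of these, the Pitx3 peak was at the start of the neighbouring gene Gbf1. Peaks at the start of another protein-coding gene are counted in these windows, and without them 13, 4 and 2 remained. Merged across lines, the peaks formed 18 sites, of which 14 were called in 1 line (11 in Beta-TC3, 1 in MV+ and 2 in RAG), 2 in 2 lines and 2 in all 3. The matching shares over all peaks were not computed. Beta-TC3 had the longest peak list, so its count of unshared sites is not read as a trait of these genes.

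**Figure D1:**
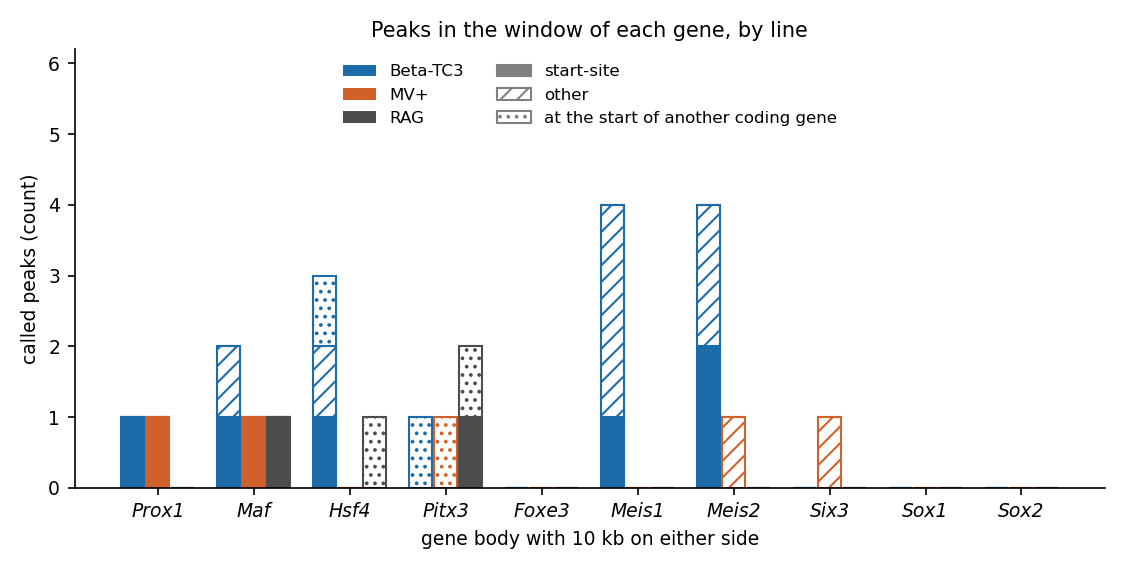
Called peaks (count) in the body of each gene and 10 kb on either side, by line. Solid bars are start-site peaks, hatched bars other peaks and dotted bars peaks at the start of another coding gene; Meis1 and Meis2 have 4 peaks each in Beta-TC3, and Foxe3, Sox1 and Sox2 have none in any line.

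The genes fell into 5 presence patterns at their start sites. Hsf4, Meis1 and Meis2 had a peak in Beta-TC3 only, a pattern of 11.1% of all coding genes. Prox1 had one in Beta-TC3 and MV+ only, as did 2.32% of genes. Pitx3 had one in RAG only, as did 2.48% of genes. Maf had one in all 3 lines, as did 17.5% of genes. Foxe3, Sox1, Sox2 and Six3 had one in no line, as did 49.5% of genes. No gene of the 10 had a start-site peak in MV+ only.

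**Figure D2:**
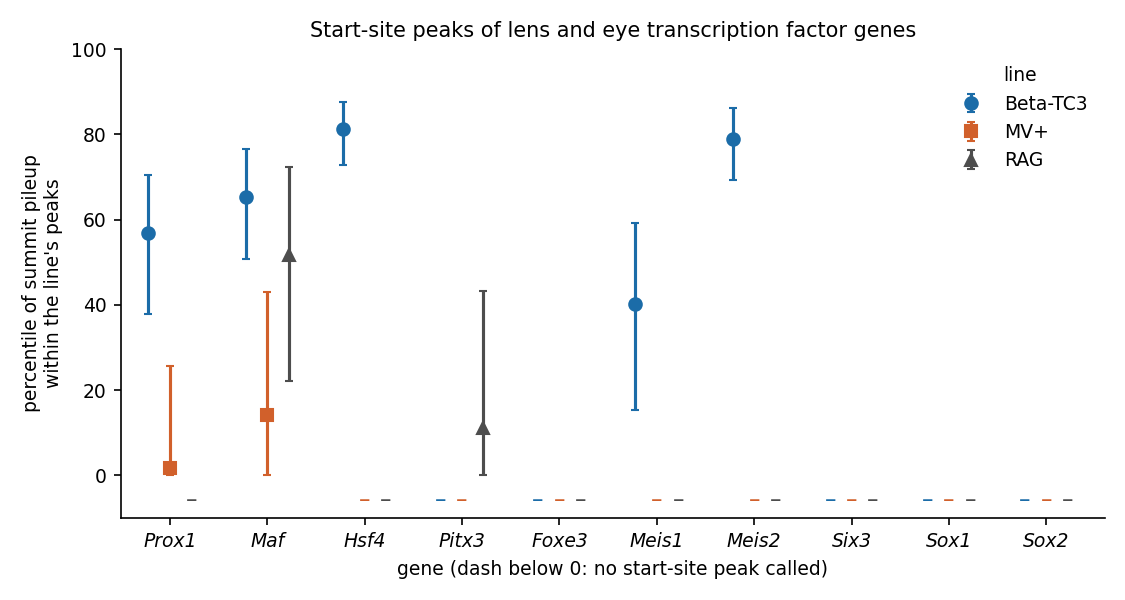
Percentile of the strongest start-site peak's pileup among all peaks of its line (y axis) for each gene (x axis), with 95% Poisson counting intervals; a dash below 0 marks a gene without a call. The Beta-TC3 points lie between 40.3 and 81.2 and the MV+ points at 1.68 and 14.1, each within a peak list of its own length.

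Among the fibre-cell factors, Maf, a basic leucine zipper activator of crystallin genes, was the one gene of the 10 with a start-site call in every line. Its start-site pileup was 70 fragments in Beta-TC3, 42 in MV+ and 51 in RAG. These stood at percentile 65.3 (interval 50.7 to 76.5), 14.1 (0.0204 to 43) and 51.7 (22.1 to 72.4). Set against the peaks found in all 3 lines, they stood at 21.7, 12.3 and 22.1, so all were among the weaker of the shared peaks. The fold over local background was 3.27, 2.83 and 2.92. The summits did not coincide: in Beta-TC3 (chr8:118230717-118232281) it lay 464 bp inside the transcript, in the untranslated first exon, while in MV+ (chr8:118231208-118232171) and RAG (chr8:118231216-118232325) it lay 152 and 30 bp before the 5′ end. Beta-TC3 also had a peak of 45 fragments in an intron, 9978 bp from the 5′ end (chr8:118221335-118222050, percentile 37), with G and C at 49.5%, and neither of the other lines had a call there. The partial Maf motif printed above lies in this peak.

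Prox1, a homeodomain factor needed for fibre elongation, was called at its start site in both Pax6-expressing lines and not in RAG. The pileup was 60 fragments in Beta-TC3 (chr1:191994093-191994885) and 34 in MV+ (chr1:191994536-191994837). The Beta-TC3 peak stood at percentile 56.9 (37.8 to 70.5) and the MV+ peak at percentile 1.68 (0 to 25.6), among the weakest of its line. Set against the peaks found in all 3 lines, these were 14.8 and 1.48, and the folds over local background were 2.63 and 2.31. The MV+ call was lost with a q-value below 0.001. Both summits were in the untranslated first exon, and a noncoding gene, Gm17566, also starts there. In RAG the nearest summit to the 5′ end was 131.2 kb away, farther than for 80.9% of coding genes.

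Hsf4, the heat shock factor whose loss causes cataract, had the highest-ranking start site of the 10 genes. Its Beta-TC3 peak (chr8:107792510-107793795) had a pileup of 100 fragments, 4.84-fold over local background, at percentile 81.2 (72.8 to 87.7), with the summit 21 bp before the 5′ end. It was the only one of the 5 genes that stayed among the 9821 Beta-TC3 peaks of the smallest q-values. MV+ had no peak in the window, the nearest summit being 19.7 kb away, and RAG had a peak of 44 fragments at the starts of its neighbours Tradd and Fbxl8 (chr8:107788355-107788848, percentile 37.8). Beta-TC3 had a further pair of peaks downstream of Hsf4, of 70 fragments at the start of Nol3 (chr8:107800195-107800581) and 95 within Nol3 (chr8:107802819-107803399), so these need not belong to Hsf4.

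The factors of the lens epithelium had little at their own starts. Pitx3, a homeodomain factor altered in the aphakia mouse, had no peak at its 5′ end in any line. Its one start-site call was in RAG (chr19:46210558-46210888), with 33 fragments at percentile 11.2 (0 to 43.3), and it lay 12074 bp from the 5′ end, in an exon, 891 bp from the start of an internal transcript. The call was lost with a width of 500 bp, with the 5′ end alone and with complete coding transcripts alone. All 3 lines had a peak about 4 kb upstream, at the start of the neighbouring gene Gbf1, with pileups of 114 in Beta-TC3, 82 in MV+ and 100 in RAG (percentiles 85.8, 73.1 and 89.7). Set against the peaks found in all 3 lines, these stood at 51.7, 66.3 and 74.8. In each line the Gbf1 peak had the highest pileup in any of the 10 windows, and it lay at another gene's start.

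Foxe3, a forkhead factor of the lens epithelium, had no peak in its window in any line. The nearest summit was about 17 kb downstream in all 3 (17.0, 17.0 and 16.9 kb), at the start of Foxd2, another forkhead gene. Those Foxd2 peaks were strong, with 155, 163 and 74 fragments at percentiles 93.1, 95.7 and 77.5.

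The early eye factors of the Meis family, TALE homeodomain proteins that act upstream of Pax6 in the lens, carried 8 of the 15 Beta-TC3 peaks. Meis1 (138529 bp) and Meis2 (202776 bp) are also the longest of the genes, the next being Prox1 (48900 bp). Their windows were therefore the widest searched, and the count was not adjusted for length. Meis1 had 4 peaks in Beta-TC3 and none in the other lines. The strongest, of 98 fragments (chr11:18826755-18827683, percentile 80.5, 71.6 to 87.2), lay in an intron 91946 bp from the 5′ end. It ranked above the start-site peak (chr11:18918944-18919936) of 47 fragments at percentile 40.3 (15.2 to 59.2), and the intervals lay apart. The third, of 67 fragments, was 1508 bp before the 5′ end (chr11:18920186-18920786, percentile 63, 46.8 to 75). It was 1225 bp from the nearest Meis1 start, so with a width of 2 kb it would also count as a start-site peak. Its interval overlapped that of the intronic peak. The weakest, of 27 fragments, was just downstream of the gene (chr11:18777961-18778249, percentile 1.07). The intronic peak had 44.5% G and C and a CpG observed-to-expected ratio of 0.135, the lowest ratio among the 24 peaks. It held the MEIS letters within 150 bp of its summit. The nearest summit to the 5′ end was 93.3 kb away in MV+ and 905.3 kb away in RAG, in RAG farther than for 98.8% of coding genes.

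Meis2 also had 4 peaks in Beta-TC3, but 1 of its sites was shared with MV+. At the 5′ end a Beta-TC3 peak of 77 fragments (chr2:115891387-115891674) stood at percentile 70.1. The larger, of 94 fragments (chr2:115892386-115893217, percentile 79, 69.2 to 86.2), had its summit 1424 bp upstream, where noncoding genes 2700033N17Rik and G630016G05Rik start. MV+ had a peak of 41 fragments inside the same stretch (chr2:115892855-115893196, percentile 12.3, 0 to 41.1). Set against the peaks found in all 3 lines, the Beta-TC3 peak stood at 38.3 and the MV+ peak at 10.7, with folds of 3.48 and 2.77. It was 1280 bp from the nearest Meis2 start, so it counted as an other peak, and with a width of 2 kb it became a start-site peak. An intronic peak of 46 fragments (chr2:115844637-115845224) and one of 43 downstream (chr2:115681665-115681949) completed the Beta-TC3 set. Local background around the Meis2 start was 2.57 times the genome-wide level in Beta-TC3, and the fold enrichment there was 2.49, the third lowest of the 24 peaks.

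Six3, a homeodomain factor that precedes Pax6 in the lens placode, had its only peak in MV+ (chr17:86017245-86017614). The pileup was 42 fragments, 2.83-fold over background, at percentile 14.1 (0.0204 to 43). Its summit lay 4467 bp into the gene as annotated, in an intron, and close to the start of the noncoding Six3os1. The peak was 2569 bp from the nearest annotated Six3 start. The site was the single one of the 18 that was called in MV+ alone, and the matching share over all peaks was not computed. The nearest summit was 21.5 kb away in Beta-TC3 and 277.9 kb away in RAG.

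The SoxB1 genes Sox1 and Sox2, whose proteins join Pax6 at crystallin enhancers and also maintain neural progenitors, stood in long stretches without a peak. For Sox2 the peak-free stretch around the 5′ end ran 492.1 kb in Beta-TC3, 2200.1 kb in MV+ and 1733.9 kb in RAG. For Sox1 it ran 476.1, 1729.1 and 538.2 kb. The nearest summit to Sox2 was 192.8 kb away in Beta-TC3, inside the host transcript Sox2ot, 850.0 kb in MV+ and 630.0 kb in RAG, and 90.6%, 94.8% and 97.4% of coding genes had a nearer one. The nearest to Sox1 was 214.5, 837.2 and 262.0 kb away, and 91.6%, 94.7% and 90.5% of genes had a nearer one. The median distance over all coding genes was 6.7 kb in Beta-TC3, 73.5 kb in MV+ and 22.1 kb in RAG.

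**Figure D3:**
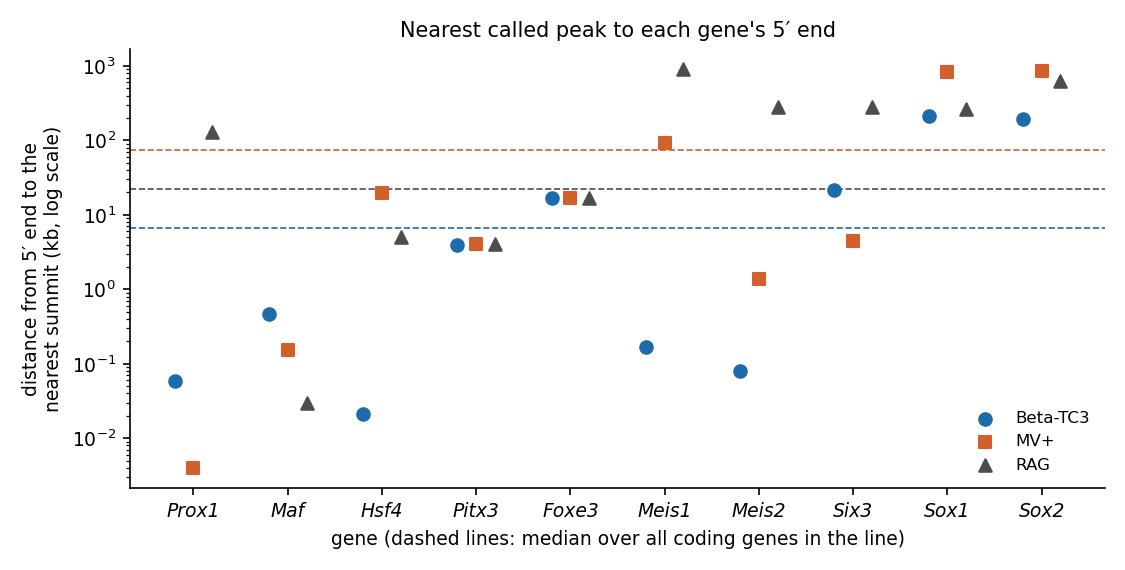
Distance in kb (log scale) from each gene's 5′ end to the nearest peak summit, by line, with dashed lines at the median over all coding genes. Sox1 and Sox2 lie above the medians in every line, from 192.8 to 850.0 kb, and Foxe3 is at about 17 kb in all 3.

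Within Beta-TC3 the order of start-site percentiles was Hsf4 (81.2), Meis2 (79), Maf (65.3), Prox1 (56.9) and Meis1 (40.3). Each gene's interval overlapped that of its neighbour in this order, and the same held for Maf and Prox1 in MV+ and for Maf and Pitx3 in RAG. Farther along the Beta-TC3 order, the Hsf4 interval (72.8 to 87.7) lay above those of Prox1 (37.8 to 70.5) and Meis1 (15.2 to 59.2). The Meis2 interval (69.2 to 86.2) also lay above that of Meis1. Ranked by fold enrichment in place of pileup, the median start-site percentile in Beta-TC3 was 37 and not 65.3. Background around the start-site peaks ran from 1 to 2.57 times the genome-wide level.

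**Figure D4:**
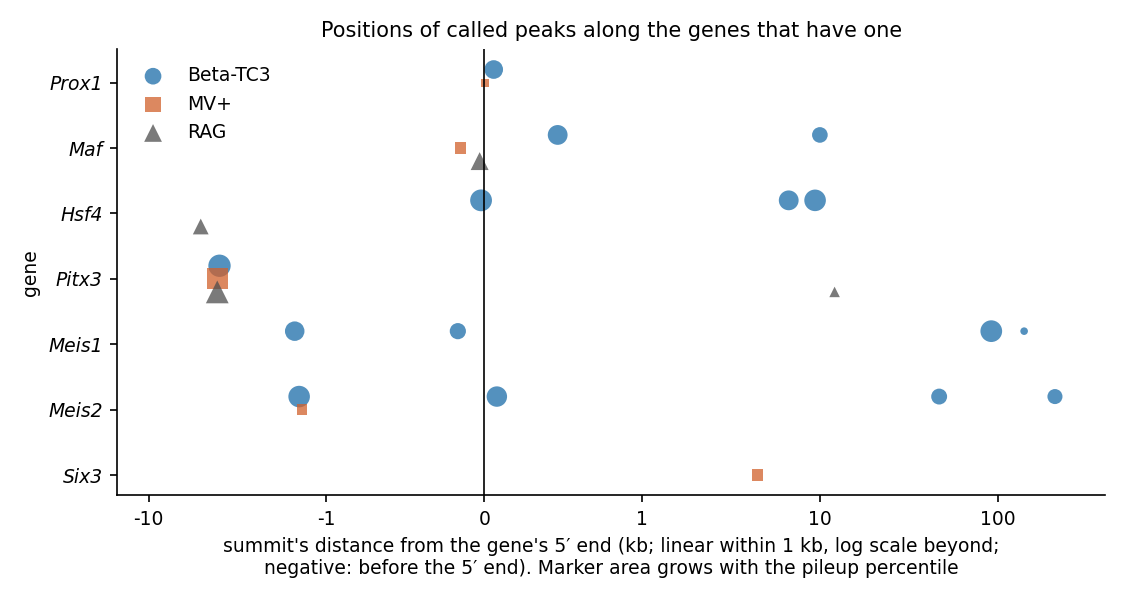
Distance of every called summit from its gene's 5′ end in kb (x axis; linear within 1 kb, log scale beyond) for the 7 genes with a peak, by line, with marker area growing with the pileup percentile. The Meis1 and Meis2 peaks spread from upstream of the start to the far end of the gene in Beta-TC3, and the Pitx3 peaks 4 kb upstream in all 3 lines are at the start of Gbf1.

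In base composition the 10 start-site peaks were close to start-site peaks of other genes. Their G and C content over the summit and 150 bp on either side ran from 47.2% to 73.4% with a median of 66.4%, and the CpG observed-to-expected ratio from 0.717 to 0.963 with a median of 0.845. Start-site peaks of all coding genes had median G and C of 65.4%, 66.1% and 66.8% and ratios of 0.814, 0.821 and 0.849 in Beta-TC3, MV+ and RAG. The 14 other peaks had a median of 56.8% and a ratio of 0.665. Peaks away from every coding start had medians of 49.5%, 47.8% and 51.8% and ratios of 0.222, 0.2 and 0.223 in Beta-TC3, MV+ and RAG. The sets are not alike, since 5 of the 14 were at the start of another coding gene. The ratio of the rest ran from 0.135 to 0.763, and their median was not computed.

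Motif letters were searched on both strands in the same stretches, for all peaks on the assembled chromosomes. The AP-1 motif (TGANTCA) was in 0 of the 24 peaks, while 12.3% of all Beta-TC3 peaks, 28% of MV+ peaks and 14.4% of RAG peaks held it. Those shares were 16.7%, 46.4% and 25.8% away from coding starts and 4.58%, 5.86% and 4.5% at start-site peaks of coding genes. Of the 24 peaks, 10 were start-site peaks and some of the rest lay at other coding starts. The lower shares therefore apply to many of them. The MEIS letters can overlap the partial Maf motif by their TGAC. They were in 6 of 15 Beta-TC3 peaks, 2 of 5 in MV+ and 1 of 4 in RAG, against 22.2%, 18.7% and 18.1% of all peaks. Of these 9, 3 were the Gbf1 start. The heat shock element (GAANNTTC) was in none of the 24, where about 5% of peaks hold it (5.07%, 5.92% and 5.1%). SOX (AACAAT) was in 1 of 15, 0 of 5 and 0 of 4 (8.37%, 9.4% and 5.95% of all peaks), and TEAD (GGAATG) in 2, 1 and 1 (13%, 18.5% and 14%). The CCAAT box was in 7, 4 and 2 (35%, 39.7% and 37.2%) and the GC box in 5, 2 and 2 (34.1%, 41.1% and 50.1%). For the GC box the shares were 71.2%, 75.9% and 77.5% at start-site peaks of coding genes and 13%, 12.3% and 18.6% elsewhere. The partial Maf motif was in 1, 0 and 0 (9.35%, 5.84% and 4.61%). These counts are small and describe letters, not bound factors.

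A wider list of 31 other transcription factors of the eye had start-site peaks at 18 genes in Beta-TC3, 9 in MV+ and 12 in RAG (58.1%, 29% and 38.7%), against 46.4%, 21.4% and 36.1% of all coding genes. Prox1 shared its pattern with Pax6, Lhx2 and Vax2. Pax6 itself had 175 fragments in Beta-TC3 (percentile 95), 74 in MV+ (percentile 66.3) and no call in RAG. Maf shared its pattern with genes that include Mafa, Hsf2, Mitf and Gata3. Foxc1, Meis3 and Eya1 were, like Hsf4, Meis1 and Meis2, called in Beta-TC3 only (11.1% of all coding genes). A further 7 of the 31 were called in Beta-TC3 and RAG only (15.6% of all coding genes). Of the 31, 12 were called in no line, Otx2, Rax, Six6 and Crx among them, against 49.5% of all coding genes.

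The labelled tissues were checked on marker genes of each, against the 46.4%, 21.4% and 36.1% of all coding genes with a start-site peak in Beta-TC3, MV+ and RAG. Lens structural genes (crystallins, Mip, Bfsp1, Bfsp2 and Lim2) had a start-site peak at 0 of 12 in MV+, the lens-derived line, 2 of 12 in Beta-TC3 (Cryba2 and Crybb3) and 1 of 12 in RAG (Cryab). Islet beta cell markers had 7 of 12 in Beta-TC3, 3 in MV+ and 1 in RAG, with Nkx6-1 and Isl1 shared by both Pax6-expressing lines, while Ins1, Ins2 and Pdx1 had none in any line. Kidney markers had 1, 1 and 4 of 12, those in RAG (33.3%) being Pax2, Emx2, Cdh16 and Krt18. The kidney share in RAG and the islet share in MV+ (25%) lay near the background, and with 12 genes a list these counts neither show nor refute a tissue of origin. Both start sites called in MV+ among the 10 factors (Prox1 and Maf) were also called in Beta-TC3.

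**Figure D5:**
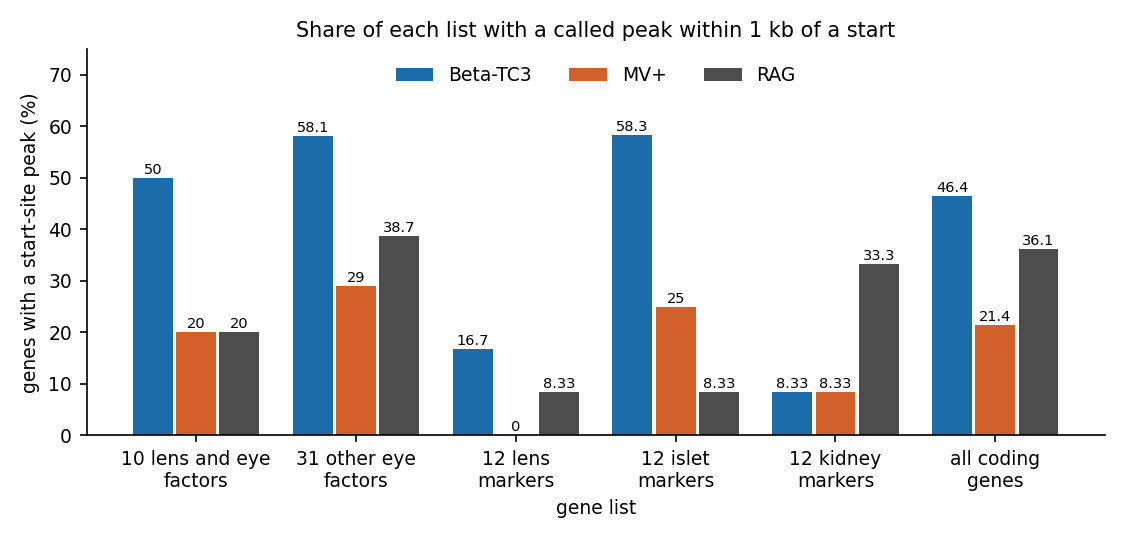
Share of each gene list (%) with a called peak within 1 kb of a transcript start, by line, with all coding genes at the right. The 10 lens and eye factors are at 50% in Beta-TC3 and 20% in MV+ and RAG, and the lens markers are at 0% in MV+.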

How the data were processed

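ATAC-seq libraries of Beta-TC3, MV+ and RAG cells had 2 replicates per line, and MACS2 called peaks once per line on both, with no control. Per the labels, reads were trimmed with Trim Galore 0.4.1, aligned to mm9 with Bowtie2 2.2.6 and handled with SAMtools 1.6 and bedtools before MACS2 2.1.1. The deposited pileup is a signal, the unscaled number of fragments over the summit. Fold enrichment, as the authors deposited it, divides pileup plus 1 by local background plus 1. The authors' q-values are deposited as −log10 values and were used only as cuts. The calls took whole fragments without a Tn5 shift, which can move peak edges.

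With Python 3.11.15 and pandas 2.3.3, peaks were assigned to 22368 protein-coding genes of GENCODE M1 on NCBIM37 (the mm9 assembly). Sox1, not listed under that name, was placed by 1 exact match of its 300-base RefSeq promoter (GRCm38.p6), with RefSeq's gene length; Tfap2a was matched through the older symbol Tcfap2a. Percentiles are mid-ranks of pileup among all peaks of a line, with exact Poisson 95% intervals (SciPy 1.17.1). Sequences were read with pysam 0.24.0, and figures were drawn with matplotlib 3.10.9. Peak assignment was tested on simulated data. The genes, the lists and the motifs were chosen with earlier results of these data known, and all 10 genes are named with every peak. With 1 pooled call per line, no test between lines was run. Alternatives were the start-site width, the flank, q cuts, equal peak numbers, and other ranks. Values of a few genes of the wider list are not reported here.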

Additional observations from a re-analysis of the deposited data

How the results depend on the processing

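No paired analysis was possible because both replicates of a line were pooled in 1 call, and for the same reason no replicate could be left out. Of the recomputed values, 61 stayed within 1.5 times the reported count or within the reported interval and 30 moved further. At an equal 9821 peaks of the smallest q-values, Beta-TC3 had start-site peaks at 1 gene, 4 peaks in the windows and 3 other peaks, and RAG had start-site peaks at 1 gene. At 9821 peaks of the highest pileup, chosen after seeing the data, these were 3, 8 and 4 in Beta-TC3 and 1 gene in RAG. At a q-value below 0.001, MV+ had start-site peaks at 1 gene. RAG fell to 1 gene with 500 bp on either side of a start, with the 5′ end alone and, chosen after seeing the data, with complete protein-coding transcripts. With the gene body alone, all and other peaks were 8 and 3 in Beta-TC3, 3 and 1 in MV+ and 2 and 0 in RAG. With 50 kb on either side they were 26 and 20, 8 and 6, and 8 and 6. Without peaks at another coding gene's start, RAG had 2 and 0. The median start-site percentile in Beta-TC3 was 37 by fold enrichment, 44.6 among start-site peaks and, chosen after seeing the data, 21.7 among peaks found in all 3 lines. Sites called in 2 or 3 lines were 4, and 2 with an overlap of 50% of both peaks. Depth sets the width of the counting intervals: weak calls near the lowest listed pileup, such as Prox1 in MV+ and the outermost Meis1 peak, have intervals that reach percentile 0. The cause of each move was not tested beyond the change in setting itself.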
